A study of Mus musculus with 3 samples.

Results

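The integrin and laminin genes are the receptors and the basement membrane proteins through which cells hold on to their surroundings. They were taken from the count table by gene symbol, as every row named for an integrin alpha chain (Itga), an integrin beta chain (Itgb) or a laminin alpha, beta or gamma chain (Lama, Lamb, Lamc). This gave 37 genes of the 44788 in the table, 26 integrins and 11 laminins. The source was C57BL/6 mouse knee cartilage, from which chondrocytes, the cells that lay down its matrix, were cultured for RNA sequencing. The 2 cKO libraries came from Col2a1-CreERT2;Kdm6bf/f cells, which carry floxed Kdm6b and a tamoxifen-activated recombinase that the Col2a1 promoter directs to cells that make type II collagen. The 1 control library came from Kdm6bf/f cells, which carry the floxed alleles without the recombinase. Both genotypes were cultured in 10% serum, and 4-hydroxytamoxifen was added to both at 1 µM for 48 h. The labels do not say whether the cKO libraries came from separate animals or cultures, and p-values measure only the spread between those libraries. Their counts of the sex-linked RNA Xist, given with the library totals, differ so far that they do not hold the same RNA.

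An integrin is a pair of 1 alpha and 1 beta chain that spans the membrane and binds matrix outside the cell and the actin cytoskeleton, through talin and kindlin, inside it. The alpha chain largely sets the ligand, so that some integrins bind collagen, some bind laminin and others bind the short RGD motif of fibronectin and related proteins. A laminin is a trimer of 1 alpha, 1 beta and 1 gamma chain, and laminins build basement membranes and, in cartilage, part of the pericellular matrix around each chondrocyte. In cartilage the collagen-binding integrins and the fibronectin receptor are known to attach chondrocytes to their matrix.

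The library totals lay between 12489738 and 12636471 counts, and 15529 genes passed the low-count filter. Kdm6b, the targeted gene, had 1049 and 948 counts in cKO cells and 1289 in control cells, a log2 fold change of -0.39 ± 0.14 (SE) that did not pass (adjusted p = 0.153 in edgeR). Gene-level counts can include exons outside the floxed part, so this checks the labels only weakly. All 8 chondrocyte markers examined, Col2a1, Acan and Sox9 among them, were detected in each library. The lowest was Matn1 at 22.35 CPM (counts per 1000000) in cKO replicate 2. All 8 fell in cKO at an adjusted p under 0.05 in edgeR (100%, beside 1.62% of all genes tested). Their summed levels were 15290 and 14340 CPM in cKO against 25720 CPM in the control. In bulk RNA, fewer cells of a type and less RNA per cell cannot be told apart. Counts of Xist, which coats the inactive X chromosome of females, were 2 and 10081 in cKO replicates 1 and 2 against 1 in the control, so cKO replicate 2 stands apart in a sex-linked transcript.

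Of the 37 integrin and laminin genes, 35 had at least 1 count and 32 passed the low-count filter. Among these 32, 4 rose in cKO chondrocytes (Itgb4, Itgb7, Itga3 and Itga11), 2 fell (Lama1 and Itga1) and 26 did not pass edgeR's quasi-likelihood test at an adjusted p of 0.05. That is 18.8% of the measured members, beside 4.42% of all genes tested (12.5% against 2.8% for rises and 6.25% against 1.62% for falls). Both cKO libraries lay above the control for 17 members and below it for 10, beside 36.6% and 37.4% of all genes. The median log2 fold change was 0.16 over 21 integrins and 0.05 over 11 laminins, against a median of -0.0022 over all genes. The laminin median changed sign with the cKO library used, at -0.13 without cKO replicate 1 and 0.21 without cKO replicate 2.

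The calls rest on 1 control library and on a variance estimate shared across genes, and several other settings called none of the members. DESeq2 called 0 of 31 members, 7 of them at an unadjusted p under 0.05, beside 2.11% of all genes. In edgeR, 0 members passed with 5 prior degrees of freedom (1.24% of all genes), with 3 (0.56%) or without the low-count filter (0.187%), each with 10 members at an unadjusted p under 0.05. The edgeR test used here also had 10 of 32 members at an unadjusted p under 0.05, beside 15.3% of all genes. Limma-voom called 7 members (5.32% of all genes), edgeR without its robust option 7 (4.91%), edgeR with unadjusted deviances 6 (4.72%) and edgeR with RLE size factors 5 (3.72%). In DESeq2 the adjusted p was 0.0585 for Itgb4, 0.0964 for Itga3, 0.111 for Itgb7, 0.132 for Itga11, 0.148 for Itga1 and 0.221 for Lama1. Each of these genes kept its direction without either cKO library, and the log2 difference without cKO replicate 2 was 1.25 for Itgb4, 0.84 for Itgb7, 0.46 for Itga3, 0.58 for Itga11, -0.63 for Itga1 and -1.89 for Lama1.

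**Figure D1:**
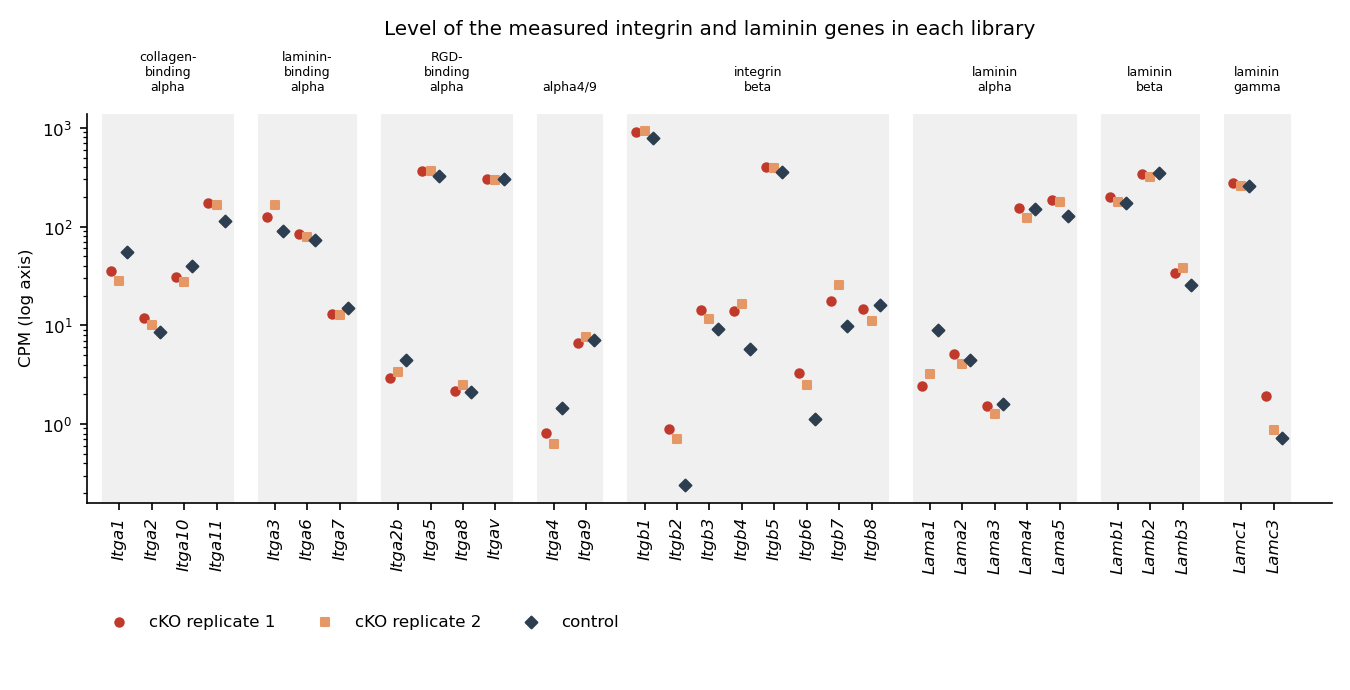
Level of 31 of the 32 measured genes in CPM on a log axis, with circles and squares for cKO replicates 1 and 2 and diamonds for the control. Levels ran up to 921 CPM for Itgb1 in cKO replicate 2, and Itgb2 and Itga4 were lowest in cKO. The diamond stands clear of both cKO points for Itgb4, Itgb6, Itgb7, Lama1 and Itga1, and, at few counts, for Itgb2 and Itga4.

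Of the 4 collagen-binding alpha chains, Itga11 rose and Itga1 fell in cKO chondrocytes. These chains (Itga1, Itga2, Itga10 and Itga11) pair with the beta chain of Itgb1 and bind collagens through an inserted domain. Itga11 (chromosome 9, 62677826 to 62783982, GRCm38), a receptor that prefers fibrillar collagens, had 171 and 165 CPM in cKO cells and 115 CPM in control cells. It rose by 0.55 ± 0.14 on the log2 scale (SE, edgeR adjusted p = 0.0237), and the cKO libraries lay close together and above the control. Itga1 (chromosome 13, 114953096 to 115101964), whose product also binds the basement membrane collagen type IV, had 35.6 and 27.8 CPM in cKO cells and 55.1 CPM in control cells. Its log2 fold change was -0.80 ± 0.17 (SE, edgeR adjusted p = 0.00630), and both cKO values were below the control. In the annotation 3.68% of its exon length is shared with Gm49395 on the same strand, a gene that the deposited counts do not hold.

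Itga10, the collagen II receptor typical of cartilage, had 30.5 and 27.7 CPM in cKO cells and 40.2 CPM in control cells. Its log2 difference of -0.47 ± 0.16 (SE) did not pass (adjusted p = 0.130 in edgeR). In the annotation, 33.5% of its exon length is also assigned to another protein-coding model on the same strand, Gm42957. The deposited counts hold no gene of that name, so whether the overlap touched the Itga10 counts is not known. Itga2, whose product binds collagen I on platelets and epithelial cells, was scarce, with 11.9 and 10.0 CPM in cKO cells and 8.62 CPM in control cells, and it did not pass (adjusted p = 0.597 in edgeR).

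Within this group of 4 chains the balance lay further towards Itga11 in cKO chondrocytes. Itga11 held 68.7% (95% exact binomial interval 67.1 to 70.4) and 71.6% (70.0 to 73.2) of the group's counts in the cKO libraries, against 52.5% (50.6 to 54.4) in the control. Itga1 held 14.3% and 12.0% in the cKO libraries against 25.2% in the control, and Itga10 held 12.2% and 12.0% against 18.4%. Per kilobase of exon, the ratio of Itga11 to Itga1 was 17.5 and 21.6 in cKO cells and 7.57 in control cells. A ratio within a library does not depend on how libraries are scaled, and these intervals cover counting error only. With 2 libraries against 1, an exact two-sided permutation test of such a share cannot go below p = 0.333, so the shift has no replicate test.

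RefSeq promoter windows (GRCm38.p6, 250 bases before to 50 after a gene's start) matched 23 of the 37 genes, and 4 of the 6 that changed. The windows of these 4 genes are shown because they are the stretches next to the starts of the alpha and beta chain genes that differed between the genotypes, read 5′ to 3′ on the gene's strand, and for Itga3 the window farthest upstream is given. Capitals mark matches, on either strand, to the GC box GGGCGG, the AP-1 motif TGANTCA, an interferon-type repeat (GAAA, any 2 bases, GAAA) or the TATA box TATAAA, which were searched as separate motifs.
Itga11 chr9:62677605-62677904 (+): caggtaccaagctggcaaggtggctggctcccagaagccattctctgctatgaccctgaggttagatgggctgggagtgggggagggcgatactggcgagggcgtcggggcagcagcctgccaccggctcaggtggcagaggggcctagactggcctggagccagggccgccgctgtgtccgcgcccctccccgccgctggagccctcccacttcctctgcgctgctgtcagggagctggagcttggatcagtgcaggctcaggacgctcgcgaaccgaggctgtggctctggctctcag
Itga1 chr13:115101915-115102214 (-): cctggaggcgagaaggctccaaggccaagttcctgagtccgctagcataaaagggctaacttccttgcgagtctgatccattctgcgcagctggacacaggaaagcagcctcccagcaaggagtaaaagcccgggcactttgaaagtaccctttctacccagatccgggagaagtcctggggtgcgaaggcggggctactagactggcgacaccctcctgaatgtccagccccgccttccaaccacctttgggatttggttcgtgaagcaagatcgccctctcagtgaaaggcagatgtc
Itga3 chr11:95076665-95076964 (-): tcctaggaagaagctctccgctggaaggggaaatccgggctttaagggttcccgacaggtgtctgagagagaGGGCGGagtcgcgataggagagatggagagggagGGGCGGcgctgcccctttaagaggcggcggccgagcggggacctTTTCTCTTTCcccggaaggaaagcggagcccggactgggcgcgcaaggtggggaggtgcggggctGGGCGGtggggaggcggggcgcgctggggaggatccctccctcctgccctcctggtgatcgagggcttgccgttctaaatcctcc
Itgb7 chr15:102231886-102232185 (-): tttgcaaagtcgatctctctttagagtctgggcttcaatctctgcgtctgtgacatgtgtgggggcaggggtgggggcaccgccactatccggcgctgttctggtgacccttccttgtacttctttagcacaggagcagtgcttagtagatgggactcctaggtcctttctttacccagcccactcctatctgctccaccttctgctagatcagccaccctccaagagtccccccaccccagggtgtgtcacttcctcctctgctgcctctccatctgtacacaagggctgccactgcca
The Itga3 window held 3 GC boxes and 1 interferon-type repeat. None of these 4 motifs stood in the Itga11, Itga1 or Itgb7 window, which says only that those letters are not in these 300 bases. Over 1 window for each of the 23 matched genes, the farthest upstream, 11 held a GC box, 2 an AP-1 motif, 2 an interferon-type repeat and 0 a TATA box. Of all 32851 windows, 35.7%, 7.81%, 3.44% and 13.6% held them. Those include more than 1 window for some genes, so the sets are not alike. The Itga3 window left out held 1 GC box and 1 AP-1 motif. The GC content was 68.0% for Itga11, 56.7% for Itga1, 66.7% for Itga3 and 56.3% for Itgb7, beside a median of 52.7% over all windows. A match is a description of the sequence and not evidence of binding.

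Among the laminin-binding alpha chains Itga3 rose. It lies on chromosome 11 (95044474 to 95076801, GRCm38) and encodes the alpha chain of a receptor for the laminins that hold the alpha chains of Lama3 and Lama5. Itga3 had 125 and 165 CPM in cKO cells and 90.9 CPM in control cells, a log2 fold change of 0.67 ± 0.17 (SE, edgeR adjusted p = 0.0411). Both cKO values were above the control, and the second lay farther from it than the first. With RLE size factors in place of TMM the adjusted p was 0.0570, so this call also depends on the scaling.

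The other laminin-binding alpha chains did not pass the test. Itga6, which pairs with the beta chain of either Itgb1 or Itgb4, had 84.6 and 79.1 CPM in cKO cells and 73.3 CPM in control cells (log2 difference 0.16 ± 0.14 SE, adjusted p = 0.678 in edgeR). Itga7, the main laminin receptor of muscle, had 13.0 and 12.7 CPM in cKO cells and 15.1 CPM in control cells. Itga3 held 66.6% and 73.7% of the counts per kilobase of these 3 chains in the cKO libraries, against 61.5% in the control.

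None of the 4 alpha chains that recognise RGD passed the test, and the abundant ones were nearly level between the genotypes. Itga5, which forms the classical fibronectin receptor with Itgb1, was the most abundant alpha chain per kilobase in each library, at 74.7 and 74.6 RPKM (counts per kilobase of exon per 1000000) in cKO against 66.1 RPKM in the control. Its log2 difference was 0.17 ± 0.14 (SE, edgeR adjusted p = 0.628). Itgav, whose product pairs with several beta chains and can activate latent TGF-beta, had 300.1 and 293.5 CPM in cKO cells and 306.6 CPM in control cells, a log2 difference of -0.05 ± 0.14 (SE). Itga8 had 27 and 32 counts in cKO cells and 26 in control cells. Itga2b, the platelet fibrinogen receptor chain, had 36 and 43 counts in cKO cells and 55 in control cells. Of these 4 genes, 0 passed in edgeR, DESeq2 or limma-voom, beside 4.42%, 2.11% and 5.32% of all genes. Unadjusted edgeR p-values under 0.05 numbered 0, beside 15.3% of all genes.

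Among the abundant alpha chains, the order per kilobase of Itga11 and Itgav differed from the control in both cKO libraries, and that of Itga3 and Itgav in cKO replicate 2 only. These orders depend on the exon lengths used. In CPM Itgav lay above Itga11 in each library, at 300.1 and 293.5 against 171 and 165 CPM in cKO and 306.6 against 115 CPM in the control. Per kilobase, Itga11 stood above Itgav in the cKO libraries, at 33.4 and 32.2 RPKM against 27.9 and 27.3 RPKM, and below it in the control, at 22.4 against 28.5 RPKM. Itga3 followed at 21.9 and 28.9 RPKM in cKO against 15.9 RPKM in the control, then Itga6 at 9.38 and 8.76 RPKM in cKO against 8.12 RPKM in the control, and Itga10 at 5.88 and 5.35 RPKM in cKO against 7.76 RPKM in the control. In cKO replicate 2 Itga3 lay above Itgav, so those neighbours do not differ beyond their spread in cKO.

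Itga4 and Itga9, which bind fibronectin, tenascin or the adhesion molecule VCAM1, were scarce. Itga9 had 6.66 and 7.66 CPM in the cKO libraries, on either side of 7.09 CPM in the control. Itga4 had 10 and 8 counts in cKO cells and 18 in control cells, and neither gene passed (adjusted p = 0.992 and 0.473 in edgeR). The alpha chains of leukocyte integrins were at or near 0. Itgam and Itgae had 0 counts in every library, which allows up to 0.242 CPM per library when 3 counts are taken as the limit, and Itgad, Itgal and Itgax had between 0 and 3 counts. In the annotation 68.7% of the Itgam exon length is also assigned to Gm49368 on the same strand. The deposited counts hold no Gm49368 either, so whether the overlap touched the Itgam count is not known.

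Among the beta chains, Itgb4 and Itgb7, both scarce, rose, and the abundant ones did not pass. Itgb4 (chromosome 11, 115974709 to 116008412, GRCm38), whose product pairs with the Itga6 chain and anchors epithelial cells at hemidesmosomes, had 172 and 208 counts in cKO cells and 72 in control cells. These are 13.8 and 16.3 CPM against 5.80 CPM, and Itgb4 rose by 1.37 ± 0.26 on the log2 scale (SE, edgeR adjusted p = 0.00178). The cKO values lay close together and were both more than 2-fold above the control. A noncoding gene on the opposite strand, B230344G16Rik, overlaps 7.66% of its exon length, and it had 1 and 0 counts in cKO cells and 4 in control cells.

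Itgb7 (chromosome 15, 102215995 to 102231944, GRCm38), a beta chain known from lymphocytes, had 218 and 326 counts in cKO cells and 121 in control cells. These are 17.5 and 25.5 CPM against 9.75 CPM, a rise of 1.14 ± 0.25 on the log2 scale (SE, edgeR adjusted p = 0.0148). Both cKO libraries were above the control, replicate 2 farther than replicate 1. Its known alpha partners were scarce, since Itga4 had at most 18 counts in a library and Itgae had 0.

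Itgb6, an epithelial chain that pairs with Itgav, had 41 and 32 counts in cKO cells and 14 in control cells, and the log2 difference of 1.35 ± 0.50 (SE) did not pass (adjusted p = 0.168 in edgeR). Itgb2, the leukocyte beta chain, had 11 and 9 counts in cKO cells and 3 in control cells (adjusted p = 0.427 in edgeR). Itgb3, the vitronectin and osteopontin receptor chain, had 14.4 and 11.6 CPM in cKO cells and 9.19 CPM in control cells. Itgb8, a further partner of Itgav, had 14.5 and 10.9 CPM in cKO cells and 16.2 CPM in control cells. The adjusted p was 0.358 for Itgb3 and 0.529 for Itgb8 in edgeR.

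Itgb1, the common partner of most alpha chains, was the most abundant integrin gene, at 222 and 226 RPKM in cKO cells and 193 RPKM in control cells. Its log2 difference of 0.21 ± 0.15 (SE) did not pass (adjusted p = 0.551 in edgeR). Itgb5, which pairs with Itgav to bind vitronectin, came next at 114 and 111 RPKM in cKO cells and 102 RPKM in control cells (adjusted p = 0.706 in edgeR). Together these genes held nearly all beta chain counts, and the Itgb1 share was 65.9% and 66.6% in the cKO libraries against 66.2% in the control. Of the 8 beta chains, 7 lay above the control in both cKO libraries and Itgb8 lay below it in both, beside 36.6% and 37.4% of all genes.

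Some of the genes that differed most are known from other cell types, so the markers of those cells are given beside them. Of 14 leukocyte markers, 4 passed the low-count filter and 0 passed the edgeR test, with summed levels of 13.6 and 13.4 CPM in cKO cells and 8.54 CPM in control cells. Of the 4 measured, 2 had an unadjusted p under 0.05 in edgeR, beside 15.3% of all genes. Emr1, Tyrobp, Cd52 and Cd3e were at 0 in every library, and Ptprc, the pan-leukocyte marker, had 1 and 1 counts in cKO against 0 in the control. Csf1r, the receptor for a macrophage growth factor, had 33 and 28 counts in cKO against 8 in the control (log2 difference 1.89 ± 0.59 SE, edgeR adjusted p = 0.0759). Cd68, a lysosomal protein gene of macrophages, had 59 and 57 counts in cKO against 32 in the control (edgeR adjusted p = 0.300). The other measured markers were Cd14, with 43 and 62 counts in cKO against 38 in the control, and Lyz2, with 21 and 18 against 19. Their adjusted p was 0.672 and 0.994 in edgeR. Of 8 epithelial markers, 3 passed the filter, and Trp63, which encodes the p63 transcription factor, fell by 0.72 ± 0.19 on the log2 scale (SE, edgeR adjusted p = 0.0309). The summed epithelial level was 20.2 and 17.9 CPM in cKO cells and 28.9 CPM in control cells, most of it from Trp63, and the other 7 markers summed to 2.41 and 2.66 CPM against 1.77 CPM. Epcam and the keratin genes Krt5, Krt14 and Krt8 had at most 5 counts, and Krt18 had 11 and 10 counts in cKO against 2 in the control.

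None of the markers of vessels, platelets, muscle, nerve or synovial fibroblasts passed the edgeR test, though several lay higher in both cKO libraries. Of 9 endothelial markers, 2 passed the filter, Cdh5, Tie1, Emcn and Cldn5 were at 0, and the sum was 3.29 and 2.58 CPM in the cKO libraries against 0.806 CPM in the control. Most of it came from Vwf, the von Willebrand factor gene, which had 24 and 27 counts in cKO against 7 in the control (log2 difference 1.82 ± 0.62 SE, edgeR adjusted p = 0.120) and was the 1 endothelial marker at an unadjusted p under 0.05. The 6 megakaryocyte markers summed to 10.8 and 17.97 CPM in cKO cells and 6.93 CPM in control cells, nearly all of it from the chemokine gene Ppbp, while Gp9 and Gp1ba were at 0. Mural markers summed to 1521 and 1653 CPM in cKO cells and 1440 CPM in control cells, with 0 of 8 passing, and synovial fibroblast markers to 7986 and 7710 CPM in cKO against 7406 CPM in the control, with 0 of 7 passing. Col1a1 made up most of the synovial sum, and the other 6 markers summed to 918 and 760.4 CPM in cKO against 611 CPM in the control. Prg4, the lubricin gene, had 232 and 169 CPM in cKO against 135 CPM in the control (edgeR adjusted p = 0.160), and 6 of the 7 lay above the control in both cKO libraries, with Dpt below it. An unadjusted p under 0.05 in edgeR was found for 2 of 8 measured mural, 5 of 7 synovial fibroblast and 1 of 2 megakaryocyte markers. The same held for 2 of 4 measured nerve and glia markers and 0 of 2 skeletal muscle markers, beside 15.3% of all genes. Skeletal muscle markers summed to 4.90 and 5.86 CPM in cKO cells and 5.88 CPM in control cells, and nerve and glia markers to 133 and 118 CPM in cKO against 126 CPM in the control. The part that any of these cells play in the integrin and laminin values was not tested.

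**Figure D2:**
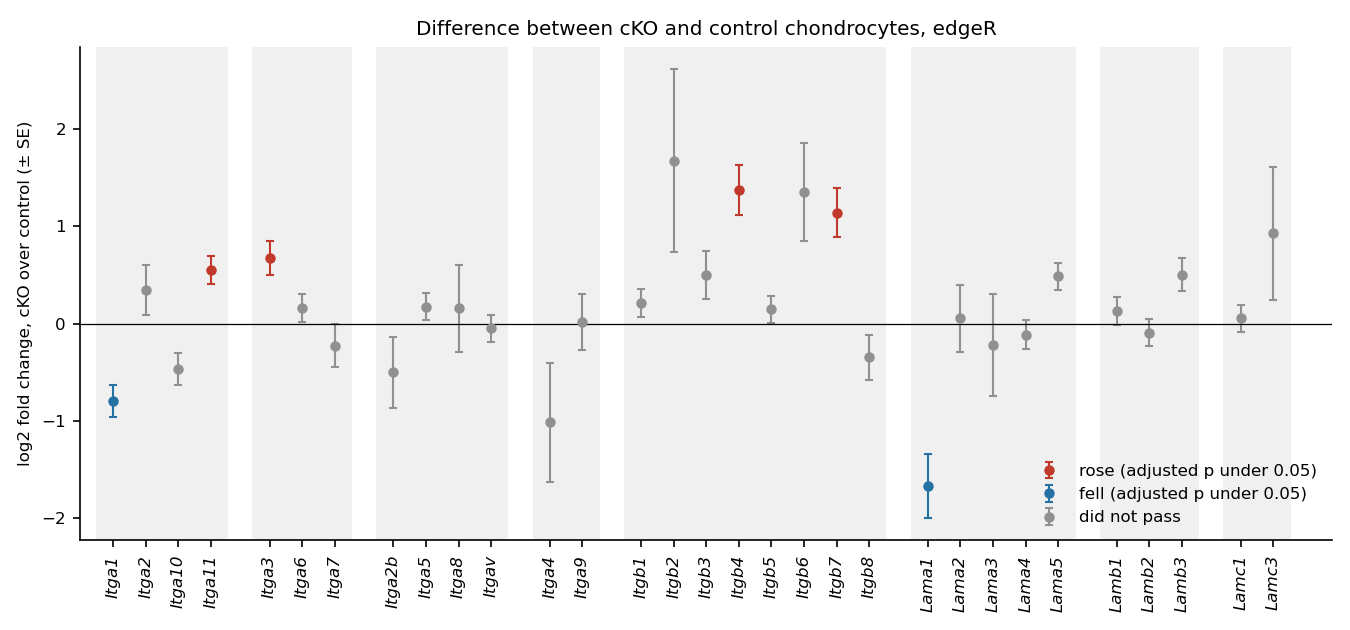
Log2 fold change of the same 31 genes, cKO over control, with its standard error from edgeR, in the same groups and order as the plot of levels. Red points rose (Itga11, Itga3, Itgb4 and Itgb7), blue points fell (Itga1 and Lama1) and grey points did not pass, and the scarce genes Itgb2, Itga4 and Lamc3 carry wide errors.

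Among the laminin alpha chains Lama1 fell, and of the abundant pair Lama5 stood above Lama4 in both cKO libraries and below it in the control per kilobase. Lama1 (chromosome 17, 67697259 to 67822647, GRCm38), the alpha chain of the first laminin of the embryo, had 30 and 41 counts in cKO cells and 111 in control cells. These are 2.41 and 3.20 CPM against 8.95 CPM, a log2 fold change of -1.67 ± 0.33 (SE, edgeR adjusted p = 0.00259). Both cKO libraries lay well below the control, although at 0.249 and 0.331 RPKM in cKO against 0.924 RPKM in the control the gene contributed little of the laminin RNA.

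Lama5, the alpha chain of the widespread adult laminins that the Itga3 and Itga6 receptors bind, had 184 and 177 CPM in cKO cells and 129 CPM in control cells. Its log2 difference of 0.48 ± 0.14 (SE) missed the threshold (adjusted p = 0.0523 in edgeR) and passed in limma-voom (adjusted p = 0.0405) and without the robust option of edgeR (adjusted p = 0.0429). Lama4, the alpha chain known from vessels and other mesenchymal tissue, had 154 and 123 CPM in the cKO libraries, on either side of 149.8 CPM in the control (adjusted p = 0.806 in edgeR). Per kilobase, the ratio of Lama5 to Lama4 was 1.27 and 1.52 in cKO cells and 0.913 in control cells. Lama5 held 53.1% (95% exact binomial interval 51.6 to 54.6) and 57.3% (55.8 to 58.9) of laminin alpha counts in cKO, against 43.9% (42.3 to 45.6) in the control. These intervals cover counting error only, those of the cKO libraries do not overlap each other, and with 1 control library the difference has no replicate test.

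The muscle chain gene Lama2 and the epithelial chain gene Lama3 were scarce, and neither passed. Lama2 had 64 and 52 counts in the cKO libraries, on either side of 55 in the control, and Lama3 had 19 and 16 in cKO against 20 in the control. The adjusted p was 0.973 for Lama2 and 0.908 for Lama3 in edgeR. Of 5 laminin alpha genes, 1 fell and 0 rose in edgeR, beside 1.62% and 2.8% of all genes. An unadjusted p under 0.05 in edgeR was found for 2, beside 15.3% of all genes. DESeq2 called 0, beside 2.11% of all genes. Limma-voom called 1 in each direction, beside 5.32% of all genes called in either.

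The beta and gamma chains of laminin did not pass the test, and the abundant ones were nearly level. Lamb2 was the most abundant laminin gene, at 55.7 and 52.5 RPKM in cKO cells and 57.6 RPKM in control cells, and Lamc1, the gamma chain that most laminins share, followed at 33.7 and 30.8 RPKM in cKO against 31.0 RPKM in the control. Lamb1 had 20.3 and 17.7 RPKM in cKO cells and 17.4 RPKM in control cells. The log2 differences were -0.09 ± 0.14 for Lamb2, 0.05 ± 0.14 for Lamc1 and 0.13 ± 0.14 for Lamb1 (SE), with adjusted p of 0.836, 0.914 and 0.749 in edgeR.

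Lamb3, which encodes a chain of the laminin of epithelial anchoring together with Lama3, had 33.6 and 38.05 CPM in cKO cells and 25.3 CPM in control cells, a log2 difference of 0.50 ± 0.17 (SE) that did not pass (adjusted p = 0.118 in edgeR). Lamc3 had 24 and 11 counts in cKO cells and 9 in control cells (adjusted p = 0.591 in edgeR). Of the 6 laminin beta and gamma genes, 0 passed in edgeR, DESeq2 or limma-voom, beside 4.42%, 2.11% and 5.32% of all genes. In edgeR 1, Lamb3, had an unadjusted p under 0.05, beside 15.3% of all genes.

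**Figure D3:**
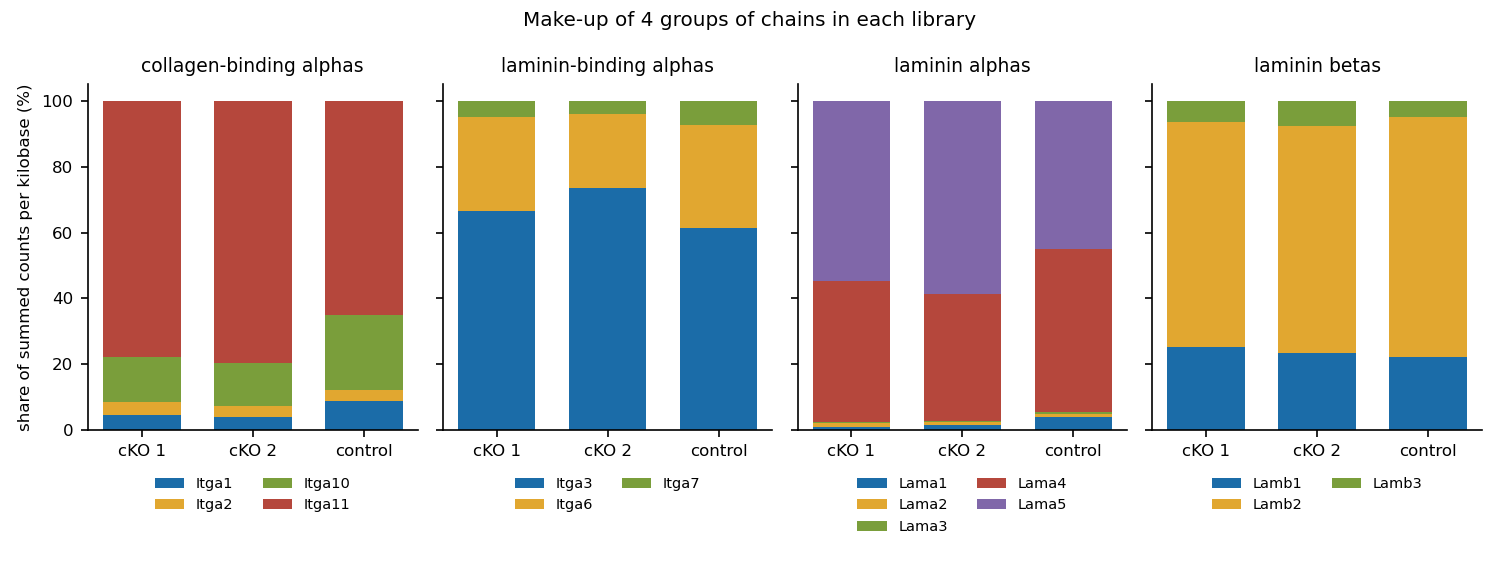
Share of each chain in the summed counts per kilobase of 4 groups of chains, with 1 bar per library. Itga11 takes 77.9% and 79.6% of the collagen-binding alpha chains in cKO against 65.3% in the control, Lama5 takes 54.6% and 58.7% of the laminin alpha chains against 45.2%, and Lamb2 takes 68.7% and 69.1% of the laminin beta chains against 73.1%.

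Over whole groups, the RNA of integrins was somewhat higher and that of laminins similar in cKO. Summed over the 26 integrin genes the level was 2527 and 2546 CPM in cKO cells and 2239 CPM in control cells, of which Itgb1, Itgb5, Itga5 and Itgav made up most. The 11 laminin genes summed to 1206 and 1101 CPM in the cKO libraries, on either side of 1104 CPM in the control. The laminin-binding alpha chains summed to 223 and 257 CPM in cKO against 179 CPM, and the collagen-binding ones to 249 and 231 CPM against 219 CPM. These sums carry no test.

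Of 38 genes for proteins that link integrins to actin and to signalling, here called the adhesome, 35 passed the filter, 1 rose and 0 fell, a called share of 2.86% beside 4.42% of all genes. The median log2 fold change was 0.12, 13 genes (37.1%, beside 15.3% of all genes) had an unadjusted p under 0.05, and DESeq2 called 0. Both cKO libraries lay above the control for 24 of the 35 and below it for 4, beside 36.6% and 37.4% of all genes. The gene that rose was Parvb, which encodes an actin-binding partner of integrin-linked kinase, with 74 and 79 counts in cKO cells and 25 in control cells (log2 fold change 1.58 ± 0.39 SE, adjusted p = 0.0172 in edgeR). Parvb lies below the level set for naming partner genes and was named after its values were seen, and in DESeq2 its adjusted p was 0.375.

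Among other basement membrane genes, Agrn and Col18a1 rose and Col4a6 fell. Of 23 genes, 20 passed the filter, 2 rose and 1 fell (15.0% beside 4.42%), with a median log2 fold change of -0.02. In edgeR 9 genes (45.0%, beside 15.3% of all genes) had an unadjusted p under 0.05. Both cKO libraries lay above the control for 9 of the 20 and below it for 9, beside 36.6% and 37.4% of all genes. Agrn, which encodes agrin, a heparan sulfate proteoglycan that binds laminins and dystroglycan, had 457 and 421 CPM in cKO cells and 102 CPM in control cells. It rose by 2.11 ± 0.16 on the log2 scale (SE, edgeR adjusted p = 2.14e-09), both cKO libraries lay over 4-fold above the control, and it passed in DESeq2 (adjusted p = 2.29e-29).

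Col18a1, a basement membrane collagen gene and the source of endostatin, had 78.4 and 68.1 CPM in cKO cells and 44.3 CPM in control cells. It rose by 0.72 ± 0.15 on the log2 scale (SE, edgeR adjusted p = 0.00556 and 0.0826 in DESeq2). Col4a6, an X-linked type IV collagen gene, had 58 and 44 counts in cKO cells and 114 in control cells, and its log2 fold change was -1.18 ± 0.31 (SE, edgeR adjusted p = 0.0284 and 0.685 in DESeq2). Other laminin partners in the list did not pass. The linker gene Nid1 had a log2 difference of 0.39 ± 0.15, the perlecan gene Hspg2 of 0.00 ± 0.16 and the laminin receptor gene Dag1 of 0.17 ± 0.15 (SE), with adjusted p of 0.172, 0.999 and 0.672 in edgeR.

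Matrix ligands of integrins outside the laminin family fell or did not pass. Of 23 such genes, 22 passed the filter, 0 rose and 3 fell, which is 13.6% beside 4.42% of all genes, and the median log2 fold change was -0.09. In this list 5 genes (22.7%, beside 15.3% of all genes) had an unadjusted p under 0.05, and 0 rose in DESeq2 or limma-voom. Both cKO libraries lay above the control for 7 measured ligands and below it for 10, beside 36.6% and 37.4% of all genes. The osteopontin gene Spp1, among those above, had 1875 and 1938 CPM in cKO cells and 1454 CPM in control cells (edgeR adjusted p = 0.191). Col2a1, the main collagen of cartilage and a ligand of the Itga10 receptor, had 12530 and 11980 CPM in cKO cells and 20120 CPM in control cells, a log2 fold change of -0.71 ± 0.17 (SE, edgeR adjusted p = 0.0142). Without the robust option of edgeR its adjusted p was 0.283. The RGD proteins of bone and vessel matrix, Ibsp and Edil3, had log2 fold changes of -0.82 ± 0.22 and -0.49 ± 0.14 (SE, edgeR adjusted p = 0.0366 and 0.0414). Both lost the call in DESeq2 (adjusted p = 0.673 and 0.362).

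Fn1, the gene of fibronectin and the chief ligand of the Itga5 receptor, had 58300 and 48570 CPM in cKO cells and 61670 CPM in control cells and did not pass (log2 -0.21 ± 0.20 SE, adjusted p = 0.700 in edgeR). Of 10 cell-surface partners of integrins on other cells, 6 passed the filter, 1 rose and 0 fell (16.7% beside 4.42% of all genes), with 2 at an unadjusted p under 0.05 (33.3% beside 15.3%). Icam1, the ligand of leukocyte integrins, had 41.6 and 35.8 CPM in cKO cells and 22.7 CPM in control cells, and rose by 0.77 ± 0.17 on the log2 scale (SE, edgeR adjusted p = 0.00965 and 0.216 in DESeq2). Vcam1, a ligand of the Itga4 receptor, had a log2 difference of 0.27 ± 0.15 (SE, edgeR adjusted p = 0.441).

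**Figure D4:**
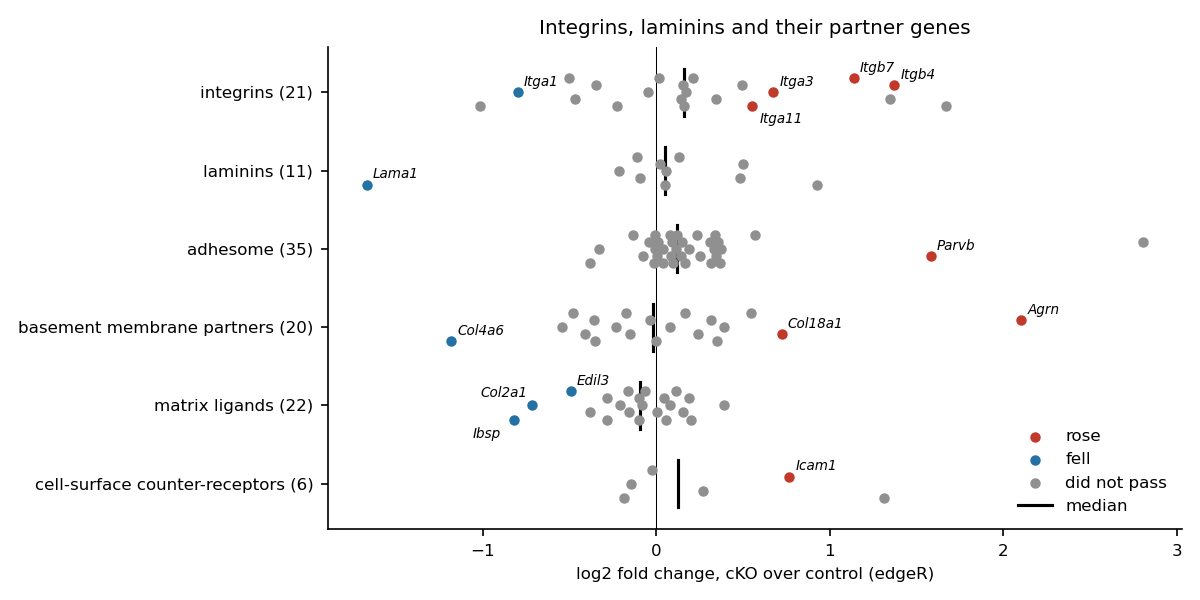
Log2 fold change, cKO over control, of every measured integrin, laminin and partner gene, 1 point per gene, with the number of genes in brackets and a black bar at the median of each list. Red points rose and blue points fell in edgeR, and Agrn at 2.11 and Lama1 at -1.67 lie farthest out among the genes that passed.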

How the data were processed

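RNA was sequenced from 2 cKO libraries and 1 control library, and the authors deposited 1 table of raw read counts per gene symbol, per the file header. Per the labels' protocols, rRNA was depleted and libraries followed an Ion Proton kit. Of the builds GRCm38 and GRCh37, both in the submitters' processing notes, neither has a stated role. Aligner, counter, annotation and strandedness were not given in the sources used here. Without known strand use, reads of overlapping genes cannot be told apart.

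Differences between cKO and control were tested with edgeR 4.0.16 in R 4.3.3 on genes passing filterByExpr, after TMM scaling, by the quasi-likelihood F test (robust, with adjusted deviances) and Benjamini-Hochberg adjustment over all 15529 genes. The fit had 1 residual degree of freedom, so the control is assumed to vary like the cKO libraries, and the median prior degrees of freedom were 19.9. The SE equals the absolute log2 fold change over the square root of F. CPM are counts per 1000000 of TMM-scaled library size, and RPKM divide CPM by the exon length in kilobases from GENCODE M21 (GRCm38), which also gave positions. Counting noise alone did not cover the difference between the cKO libraries (chi-square 9.06 per gene, 16293 genes). The test was checked on simulated counts with known changes. Those changes were larger than the ones called for Itga11, Itga3 and Itga1, and no gene given a change was as scarce as Lama1. The check therefore does not cover these 4 calls. Every simulated library, the control included, was drawn at the fitted spread, so the check cannot show whether the real control varies like the cKO libraries. DESeq2 1.42.0, limma-voom (limma 3.58.1), RLE size factors, no filter, fixed prior degrees of freedom and leaving out a cKO library were tried as alternatives.

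Members were described by the rule that each is accounted for, with values by library where the mean was at least 1 CPM or the test passed. Up to 4 partner genes per list and direction that passed at a mean of at least 5 CPM were named, and genes named beside them as ligands, receptors or markers were chosen after their values were seen. Members and gene lists were chosen with earlier results of these data known. No set test was run. The values of 1 measured member and 1 marker are not reported here.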

Additional observations from a re-analysis of the deposited data

How the results depend on the processing

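The direction of each of the 32 measured genes was the same in edgeR with RLE size factors, without the low-count filter, without the robust option, with unadjusted deviances and with prior degrees of freedom of 5 or 3, and in limma-voom, and in DESeq2 for the 31 genes it gave an adjusted p. The robust option, the type of deviance and the prior degrees of freedom act on the variance, so direction could hardly change under those settings. The calls, which depend on the variance too, were less stable. Among integrins and laminins 4 rose and 2 fell, against 3 and 2 with RLE size factors, 5 and 2 in limma-voom or without the robust option, 4 and 2 with unadjusted deviances, and 0 and 0 in DESeq2, without the low-count filter and with prior degrees of freedom of 5 or 3. Over all genes 435 rose and 252 fell in edgeR, where DESeq2 called 227 and 83, and edgeR called 151 and 42 with prior degrees of freedom of 5, 84 and 3 with 3, and 45 and 0 without the filter. Why the filter moves the counts was not tested.

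The number that rose, 1 in the adhesome and 1 among cell-surface partners, was 0 under each of those 4 settings. Of basement membrane genes, where 2 rose and 1 fell, 1 rose in DESeq2 and with prior degrees of freedom of 5 or 3, 0 rose without the filter, and 0 fell under any of the 4. Of matrix ligands, where 3 fell, 1 fell in DESeq2 and with RLE size factors, and 0 fell without the filter or with prior degrees of freedom of 5 or 3. The integrin median of 0.160 was 0.168 without the filter and 0.173 to 0.175 with 1 cKO library left out, and the laminin median of 0.052 ranged from -0.126 to 0.213. With 1 cKO library left out no residual degree of freedom remains, so those values carry no test. Itga9 and Lama4 changed sign without cKO replicate 2, and Lama2 and Lamc1 without cKO replicate 1. None of the 6 called genes did. No paired analysis was possible because the control has 1 library and the labels give it no replicate number. The settings without the robust option and with unadjusted deviances were chosen after seeing the data. For genes under 50 counts, such as Itgb2, Itga4, Itga8, Itgb6 and Lamc3, depth limits what could be detected.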

Other observations

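Other genes with related symbols, which are no integrin chains, were read in the same fit. Itgbl1, which encodes a secreted protein that resembles the extracellular stalk of integrin beta chains, had 251 and 203 counts in cKO cells and 349 in control cells. Its log2 difference of -0.64 ± 0.19 (SE) did not pass (adjusted p = 0.0644 in edgeR). Itgb1bp1, which encodes a protein that binds the tail of the Itgb1 chain and opposes its activation, had 153 and 178 counts in cKO cells and 158 in control cells. Itgb3bp, which encodes a centromere protein, had 29 and 22 counts in cKO cells and 27 in control cells. Itgb1bp2 had 3 and 4 counts in cKO cells and 2 in control cells, and Itgb2l had 0 in every library.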
